A study of Homo sapiens with 4 samples.

Results

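The contacts described here join positions 500 kb or more apart on the short arm of chromosome 17, in the stretch around HAR123, a human-accelerated region that lies inside the gene SMG6. They were taken from Hi-C matrices as all pairs of non-overlapping 10-kb windows whose names differ by at least 500 kb and that had values in all libraries. With 148 such windows there were 10878 pairs of different windows, and 5433 of them were long-range in this sense. They fell into 83 pairs of 100-kb blocks, of which 68 held at least 25 window pairs and were tested. The rule used distance and measurability, and no contact value.

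All libraries came from H9, a long-established line of human embryonic stem cells (hESCs), with the WT genotype. The 2 hESC libraries, labelled ESC, came from cells that received no treatment, and the 2 neuroectoderm libraries, labelled ECTO, came from cells after neuroectodermal differentiation. In the methods of the study this was culture with Noggin and SB431542, inhibitors of the BMP and TGFβ branches of signalling. The labels do not say whether the replicates of a cell type were separate cultures, so p-values measure the spread between these libraries, which may be technical. The headers of the matrices named the same source directories for both cell types, and the assignment to cell types rests on the labels; a contact matrix holds no marker gene by which to check it.

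Hi-C joins and sequences pieces of DNA that lay near each other in fixed nuclei, so a read pair records a contact. Contacts become rarer with distance along the chromosome. Most contacts within a megabase lie inside domains whose borders are often set by the protein CTCF and by cohesin, and contacts over longer distances also follow the sorting of active and inactive chromatin. A block pair was therefore read against the mean at its own distance: a ratio of observed over expected contact of 1 means the mean contact of that library at those distances. The region holds SMG6, which encodes an endonuclease of nonsense-mediated RNA decay, HIC1, a transcriptional repressor, and PAFAH1B1 and YWHAE, which are both linked to lissencephaly. YWHAE lies in an unmeasured stretch, and no measured window holds it.

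The highest ratio of the 68 tested block pairs, in both cell types, joined MNT–METTL16 with the block in the 3′ part of RAP1GAP2. Blocks were set by window names, here 2400000 to 2499999 and 2900000 to 2999999 (hg38). The MNT–METTL16 windows, named 2408000 to 2498000, hold much of METTL16 and none of MNT. The start of MNT, at 2401104, lies in the window named 2398000, which belongs to the SRR–SGSM2 block. MNT is a repressor that pairs with MAX, METTL16 is an RNA methyltransferase, and RAP1GAP2 is a GTPase-activating protein for RAP1. CTCF often sets the borders of domains. Matches to a loose form of the core of the CTCF motif (CC, any 3 bases, AGG, any base, GGC) were therefore sought. All those within the block coordinates given are shown with 5 bases on either side and the match in capitals. Both strands of hg38 were searched, and matches on the minus strand are written along that strand.
MNT–METTL16 block, chr17:2400536-2400557, plus strand, in MNT: gccgcCCGGGAGGGGGCcctgt
MNT–METTL16 block, chr17:2412756-2412777, plus strand, in METTL16: gtgtcCCAGGAGGGGGCctgct
MNT–METTL16 block, chr17:2414983-2415004, plus strand, in METTL16: tgctgCCCGCAGGAGGCaggag
RAP1GAP2 3′ block, chr17:2901254-2901275, plus strand: ggactCCCCCAGGTGGCagagg
RAP1GAP2 3′ block, chr17:2913804-2913825, minus strand: ttgctCCTCAAGGGGGCagtta
RAP1GAP2 3′ block, chr17:2925192-2925213, plus strand: aatggCCGTGAGGAGGCaaaaa
RAP1GAP2 3′ block, chr17:2930234-2930255, minus strand: attggCCACAAGGGGGCctggt
RAP1GAP2 3′ block, chr17:2960641-2960662, minus strand: gggccCCAGAAGGAGGCtgctt
Within its coordinates the MNT–METTL16 block held 3 matches, all on the plus strand. The RAP1GAP2 3′ block held 5, of which 2 were on the plus and 3 on the minus strand. The windows whose contacts were summed lie shifted against these coordinates. They leave out the sequences that start at 2400536 and 2901254. The last RAP1GAP2 window also holds a plus-strand match at 3002527 to 3002548, past the block coordinates. The match is common: 36.49% of the 148 windows held at least 1, and blocks held between 0 and 13. Whether CTCF binds any of these places was not measured here.

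The long-range contacts rested on few reads. The 2 hESC libraries held 2469 and 2541 long-range read pairs, against 1493 and 1566 for neuroectoderm, which is 0.454, 0.468, 0.275 and 0.288 read pairs per window pair. In hESC 65.9% and 64.9% of the window pairs had no read pair at all, and for neuroectoderm the figures were 77.3% and 75.8%, while no single window pair held more than 7 read pairs in any library. Sums over blocks are therefore the unit of what follows. Over the 68 block pairs, the reads of the 2 hESC libraries differed from each other no more than counting error gives (chi-square per degree of freedom 0.870), and neither did those of the 2 neuroectoderm libraries (0.784). Between a hESC and a neuroectoderm library the same quantity was 1.12 to 1.63. Single window pairs held different numbers of read pairs in the replicates, so the matrices were not copies of each other.

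The neuroectoderm libraries had a larger part of their long-range read pairs at 1000 to 1500 kb than the hESC libraries, by more than the spread of the replicates. Of the long-range read pairs, 59.99% ± 0.81 (SD, n = 2) in hESC and 57.1% ± 0.48 in neuroectoderm joined windows 500 to 750 kb apart. The share at 1000 to 1500 kb was 13.002% ± 0.74 in hESC, against 15.6% ± 0.25 after differentiation. Beyond 1500 kb it was 2.07% ± 0.35 and 2.26% ± 0.31, values that lie within the spread of the replicates.

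Per read pair between different windows, contact at 1000 to 1500 kb took 0.836% and 0.790% of the reads of each hESC library, against 1.207% and 1.204% for neuroectoderm. The 95% Wilson intervals, which cover counting error only, ran from 0.708% to 0.9301% over the hESC libraries and from 1.06% to 1.37% over the neuroectoderm libraries. The groups did not overlap in this band. By this denominator they did not overlap in any other band either. At 500 to 750 kb, hESC had 3.67% and 3.83%, against 4.36% and 4.50% for neuroectoderm. With 2 against 2 libraries no permutation test can reach the threshold, so none was run. With read pairs inside a window counted too, the band of 1000 to 1500 kb held 334 of 57025 and 317 of 57554 read pairs in hESC. For neuroectoderm it held 235 of 35199 and 241 of 35484, again the larger share. For all contacts 500 kb or more apart the direction depended on the denominator. They took 6.26% in hESC and 7.75% in neuroectoderm of read pairs between different windows. With read pairs inside a window counted too, they took 4.37% of the hESC reads and 4.33% of the neuroectoderm reads.

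**Figure D1:**
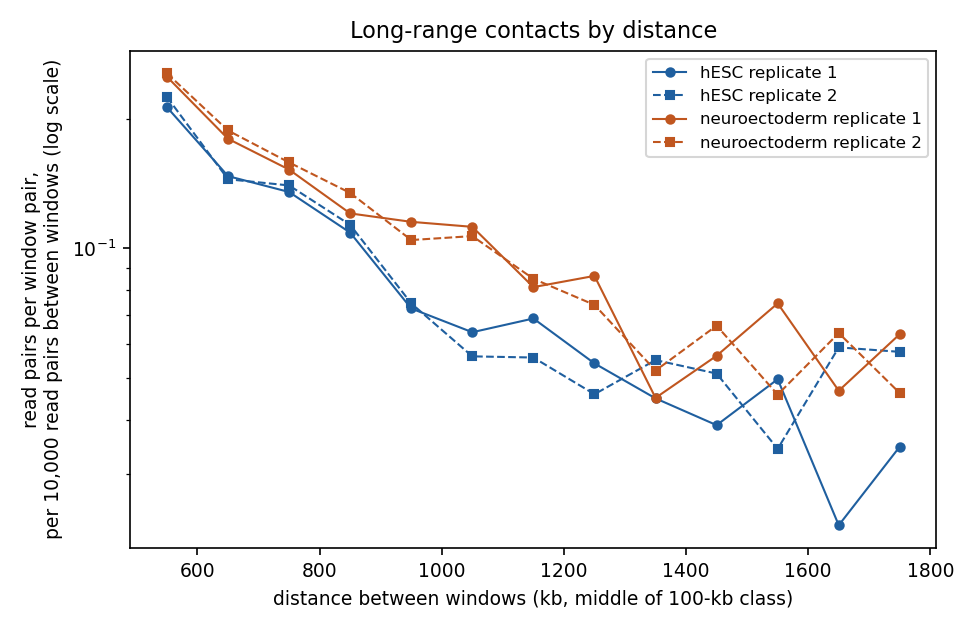
Read pairs per window pair against the distance between windows (kb, classes of 100 kb), scaled to an equal number of read pairs between different windows in each library, on a log axis; each line is 1 library. The neuroectoderm lines lie above the hESC lines in each class from 500 kb up to 1300 kb and in the class from 1400 kb. In the other classes the libraries of the cell types overlap.

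In hESCs, 12 of 68 block pairs passed the test against the mean at their distance (17.6%; limma, Benjamini-Hochberg adjusted p under 0.05), 6 above it (8.82%) and 6 below it (8.82%). In neuroectoderm 9 passed (13.2%), 5 above (7.35%) and 4 below (5.88%). At an unadjusted p under 0.05 there were 21 and 17. Of the block pairs that passed, 4 were shared, which is 33.3% of the hESC and 44.4% of the neuroectoderm ones. These were MNT–METTL16 to the 3′ part of RAP1GAP2, ABR–TRARG1 to the HAR123 part of SMG6, and CRK–MYO1C to SRR–SGSM2, all above the mean, and INPP5K–PITPNA to HIC1, below it. Over all 68 block pairs, 11 lay above 1 and 12 lay below 1 in every library.

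The fitted standard errors of these calls were often below the counting error of the reads behind them, in 9 of the 12 hESC calls and in all 9 neuroectoderm calls. Exact Poisson intervals on the reads are therefore given beside the fit. The deposited values are read pairs scaled by a balancing factor of each window. Expected read pairs were the mean deposited value at the same distance divided by both factors, so these intervals are not free of the balancing. By those intervals alone, with the reads of both replicates summed, 10 block pairs lay above and 12 below the expectation in hESC, and 7 above and 8 below in neuroectoderm. When the pairs of blocks at shorter distances were taken into the fit and adjusted together with the long-range ones (139 block pairs, of which 38.1% were called in hESC and 43.9% in neuroectoderm), 17 and 16 of the 68 long-range block pairs passed. With each library left out in turn, 2 of the 12 hESC calls and 3 of the 9 neuroectoderm calls passed every time. These were MNT–METTL16 to the 3′ part of RAP1GAP2 and ABR–TRARG1 to the HAR123 part of SMG6 in both cell types, and SRR–SGSM2 to the 3′ part of RAP1GAP2 in neuroectoderm.

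**Figure D2:**
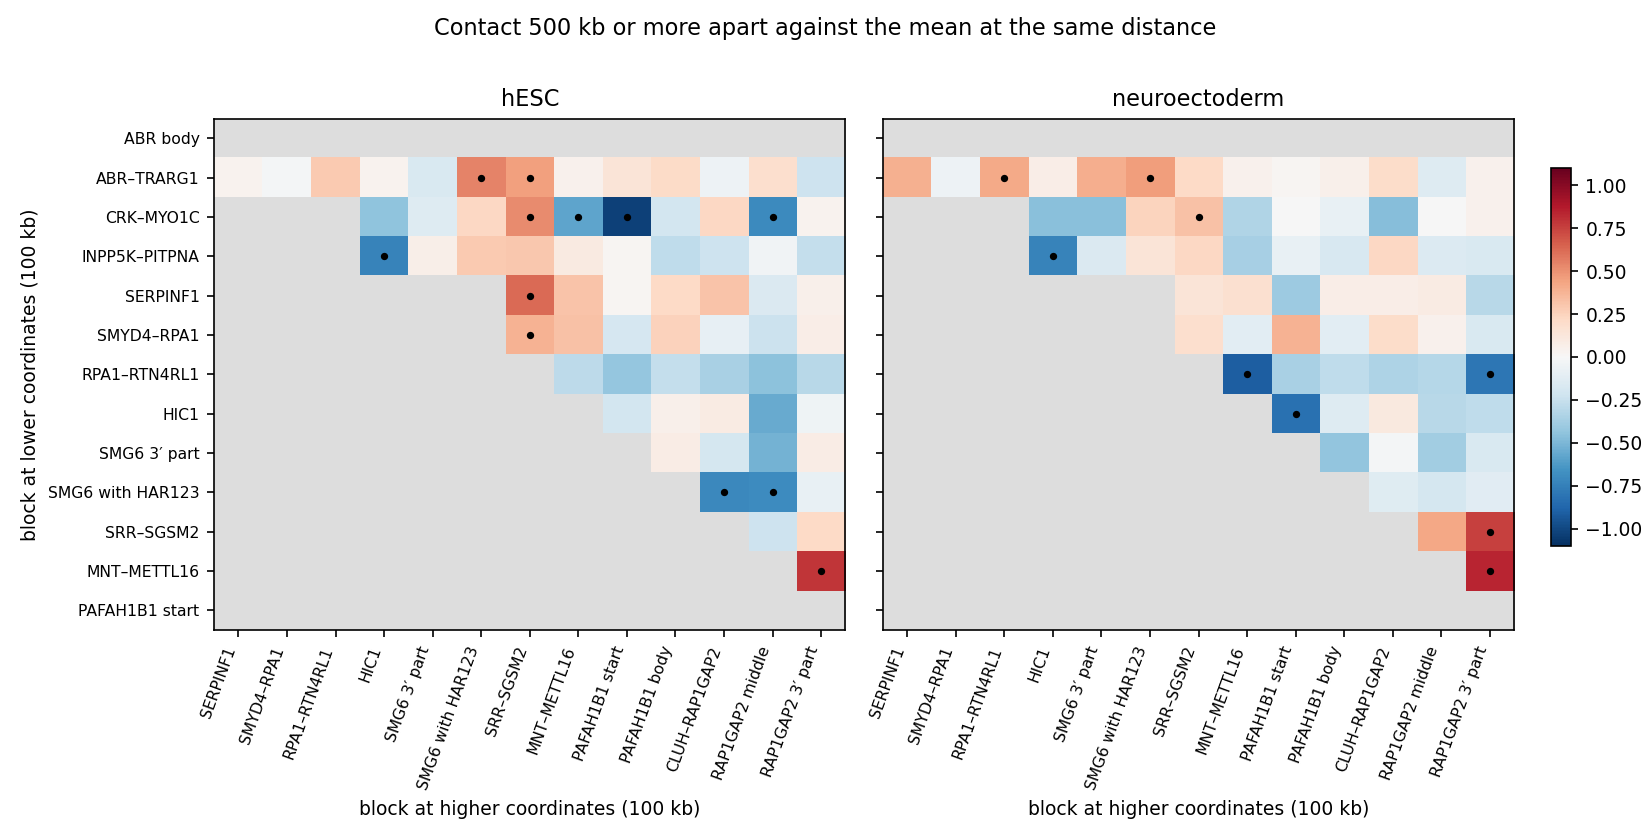
Log2 ratio of observed over expected contact for each tested pair of 100-kb blocks in hESC (left) and neuroectoderm (right). Blocks are ordered along the chromosome and named by genes within their coordinates, which their windows need not hold. Dots mark block pairs with an adjusted p under 0.05 by limma, and grey cells were not tested. MNT–METTL16 to the 3′ part of RAP1GAP2 is the darkest red cell in both maps, at 0.78 and 0.84.

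The contact of MNT–METTL16 with the 3′ part of RAP1GAP2 was 1.76 and 1.83 times the mean at its distance for hESC, with 1.88 and 1.86 times for neuroectoderm. These values lie close together, all well above 1. The block pair held 73, 83, 51 and 51 read pairs in the same order. Distance and balancing factors gave 42.0, 46.6, 26.7 and 27.9. With replicates summed, the reads were 1.76 times the expectation in hESC (exact Poisson 95% interval 1.496 to 2.06) and 1.87 times in neuroectoderm (1.52 to 2.26). The log2 ratio was 0.78 (SE 0.02, limma adjusted p = 9.8e-26) in hESC and 0.84 (SE 0.02, adjusted p = 1.1e-26) in neuroectoderm. Those p-values rest on a fitted error far below the counting error of 0.116 and 0.143. Without the variance trend the limma adjusted p was 0.031 and 0.016. This block pair passed in both cell types under each of the 18 alternatives that kept its blocks, with a log2 ratio of 0.30 to 0.88 for hESC and 0.46 to 0.89 for neuroectoderm. Several of those alternatives left the ratio itself unchanged, among them leaving out a library of the other cell type. Moved block borders and 200-kb blocks were not among them. The cell types differed by 0.05 (SE 0.03, limma adjusted p = 0.40).

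The excess was spread over both blocks. All 10 windows of the MNT–METTL16 block held more read pairs with the other block than expected, and so did 9 of the 10 windows of the RAP1GAP2 block. The third window of the MNT–METTL16 block held the most, 52 read pairs over the 4 libraries against 25.9 expected. In the RAP1GAP2 block the last 4 windows held 38 to 40 read pairs each. The RAP1GAP2 3′ block is the last of the matrix, and its windows had been given larger balancing factors than those of the block before it (1.52 against 1.24 in hESC replicate 1, 1.21 against 1.13 in neuroectoderm replicate 1). On read pairs without any balancing the log2 ratio was 0.56 for hESC and 0.78 for neuroectoderm. With the number of long-range reads of each window entered in the expectation, it was 0.30 and 0.46, and both remained past the threshold.

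**Figure D3:**
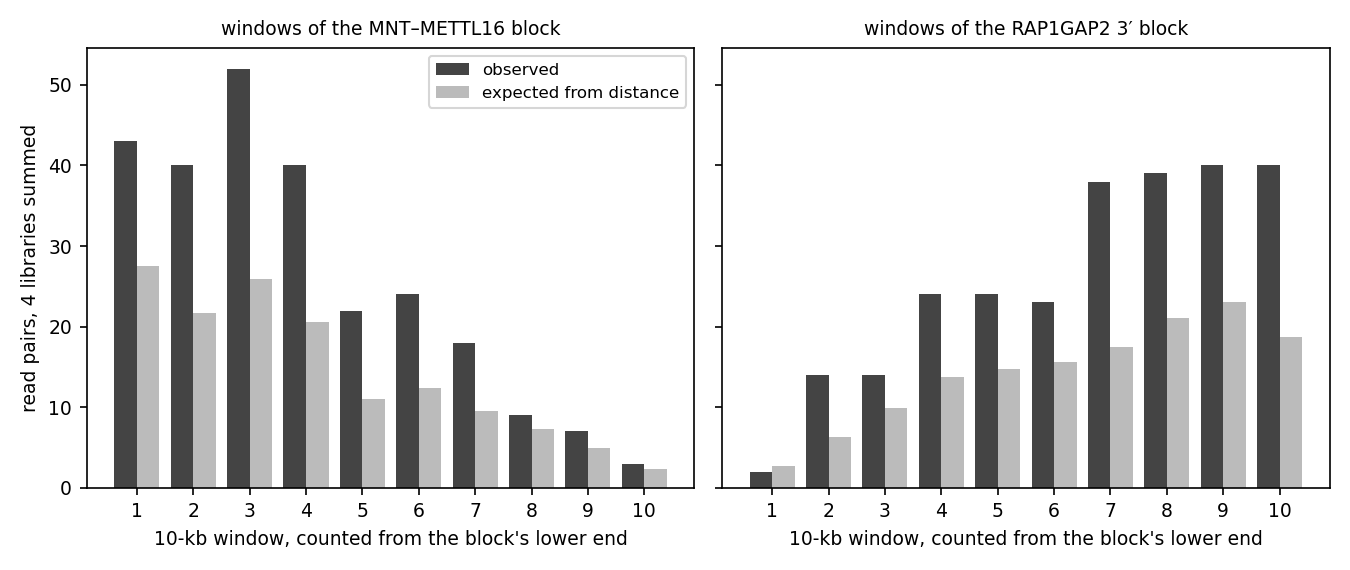
Read pairs between the MNT–METTL16 block and the RAP1GAP2 3′ block, summed over the 4 libraries, for each 10-kb window of the first (left) and of the second (right). Dark bars are observed and light bars are expected from distance and balancing factors. The dark bar is higher in all 10 windows on the left and in 9 of 10 on the right.

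The windows of the neighbouring block SRR–SGSM2 hold the starts of SMG6, TSR1, SGSM2 and MNT. They also hold SRR, the gene of a racemase that makes D-serine, without its start, which lies in the last window of the HAR123 block. SRR–SGSM2 lay further above the mean with the 3′ part of RAP1GAP2 in neuroectoderm than in hESC. The ratio was 1.31 and 1.06 in hESC and 1.99 and 1.55 in neuroectoderm, with no overlap between the groups but a wide gap between replicates. Distance and balancing factors gave 61.8 and 63.8 read pairs for hESC, and 75 and 66 were counted. For neuroectoderm they gave 37.6 and 40.2, and 76 and 61 were counted. Against the mean at its distance it passed in neuroectoderm (log2 0.76, SE 0.08, limma adjusted p = 2.9e-09) and not in hESC (log2 0.22, SE 0.08, adjusted p = 0.054). The neuroectoderm value fell to 0.19 (adjusted p = 0.41) when the long-range reads of each window were part of the expectation.

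The SRR–SGSM2 block was also above the mean with blocks on its other side. In hESC its mean ratio was over 1 with 6 of the 7 blocks it was tested with, and in neuroectoderm with all 7. Of all 68 tested block pairs, 34 had a mean ratio over 1 in hESC and 31 in neuroectoderm. ABR–TRARG1 was over 1 with 9 of 13 blocks in hESC and with 11 of 13 in neuroectoderm. The SERPINF1 block lies next to an unmeasured stretch. Its 4 measured windows hold part of the gene of a secreted serpin, without its start, and part of SMYD4. Contact of SRR–SGSM2 with SERPINF1 was 1.62 and 1.57 for hESC, with 1.07 and 1.16 for neuroectoderm. The hESC value passed (log2 0.62, SE 0.10, limma adjusted p = 7.6e-06; reads 1.61 times the expectation, exact Poisson 95% interval 1.30 to 1.98). The neuroectoderm value did not (log2 0.14, adjusted p = 0.34). Without hESC replicate 1 the hESC value was 0.60 with an adjusted p of 0.11 by limma.

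Contact of SRR–SGSM2 with CRK–MYO1C, which holds the genes of the adaptor CRK and of an unconventional myosin, was 1.51 and 1.44 in hESC and 1.32 and 1.23 in neuroectoderm. Both cell types passed (log2 0.52 and 0.33, limma adjusted p = 2.3e-05 and 0.0073). The Poisson interval of the summed reads excluded 1 in hESC (1.11 to 1.88) and included it in neuroectoderm (0.841 to 1.76). On unbalanced read pairs the log2 ratios were 0.35 and 0.08, with limma adjusted p-values of 0.075 and 0.67. The hESC call ended without hESC replicate 1 (limma adjusted p = 0.090), and the neuroectoderm call without hESC replicate 1 or either neuroectoderm library (0.075 to 0.27). With ABR–TRARG1 the SRR–SGSM2 block had ratios of 1.46 and 1.34 in hESC and 1.12 and 1.25 in neuroectoderm, and with SMYD4–RPA1 1.38 and 1.29 in hESC and 1.28 and 1.03 in neuroectoderm. Both passed in hESC alone (limma adjusted p = 0.0035 and 0.032), and for both the difference between cell types did not pass (adjusted p = 0.46 and 0.66). Without either hESC library neither of them passed (limma adjusted p = 0.14 to 0.62), and the second did not pass without neuroectoderm replicate 1 (0.084).

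The block with HAR123 (2200000 to 2299999, all inside SMG6) had 6 tested partners. Its contact with ABR–TRARG1, about 1 Mb away, was above the mean in every library. The ratio was 1.47 and 1.55 in hESC and 1.42 and 1.41 in neuroectoderm, from 33, 34, 28 and 28 read pairs. Distance and balancing factors gave 24.3, 22.8, 19.98 and 19.8. It passed in both cell types (log2 0.55, limma adjusted p = 7.2e-08, and 0.46, adjusted p = 1.8e-06), and the Poisson intervals of the summed reads were 1.102 to 1.81 and 1.06 to 1.83. Without the windows next to unmeasured stretches the log2 ratios were 0.38 and 0.42 (limma adjusted p = 0.076 and 0.085). The ABR–TRARG1 windows border such a stretch and had the largest balancing factors (2.10 in hESC replicate 1).

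In the other direction the HAR123 block lay below the mean in hESC. With CLUH–RAP1GAP2, which holds the start of RAP1GAP2, the ratio was 0.418 and 0.774 in hESC and 1.01 and 0.802 in neuroectoderm. With the middle of RAP1GAP2 it was 0.561 and 0.601 in hESC and 0.851 and 0.875 in neuroectoderm, so that the groups did not overlap, and none of the 10 windows on either side of the second contact held more read pairs than expected over the 4 libraries. Both contacts passed as low in hESC (log2 -0.71 and -0.69, each with limma adjusted p = 0.012) and neither did in neuroectoderm, but the differences between cell types did not pass (adjusted p = 0.35 and 0.40). Without hESC replicate 1 the first was -0.33 (limma adjusted p = 0.82), it did not pass without neuroectoderm replicate 1 either (0.18), and the second did not pass whichever library was left out (0.11 to 0.37). The remaining partners, CRK–MYO1C, INPP5K–PITPNA and the 3′ part of RAP1GAP2, passed in no test. With SERPINF1 the HAR123 block shared 10 window pairs, too few to be tested, and their ratio was above that of every tested block pair by the mean of each cell type, at 2.48 and 3.09 for hESC and 1.73 and 2.33 for neuroectoderm. They held 19, 28, 8 and 12 read pairs where distance and balancing factors gave 7.44, 8.97, 4.35 and 5.48. The single window with HAR123 (2233501 to 2243500) held 13 and 15 long-range read pairs by hESC library against an expectation of 25.3 and 24.5. The neuroectoderm libraries held 11 and 17 against 14.5 and 16.2.

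The block with HIC1 (2000000 to 2099999), which also holds MIR132 and MIR212, had 8 tested partners and lay above the mean with none of them in a way that passed. Its contact with INPP5K–PITPNA, the genes of an inositol phosphatase and of a phosphatidylinositol transfer protein, was low in every library. The ratio was 0.508 and 0.618 in hESC and 0.509 and 0.619 in neuroectoderm, and it passed in both (log2 -0.73 in each, limma adjusted p = 0.012). The summed reads were 0.647 times the expectation in hESC (exact Poisson 95% interval 0.483 to 0.848) and 0.576 times in neuroectoderm (0.386 to 0.827). Without either neuroectoderm library neither value passed (limma adjusted p = 0.32 to 0.62), and without hESC replicate 1 the hESC value did not (0.37). With the block of the PAFAH1B1 start, the gene of a dynein regulator, the ratio was 0.933 and 0.783 in hESC and 0.576 and 0.471 in neuroectoderm. It passed in neuroectoderm (log2 -0.82, limma adjusted p = 0.0037) and the cell types did not differ past the threshold (adjusted p = 0.31). Without either neuroectoderm library it did not pass (limma adjusted p = 0.077 and 0.11). The window of HIC1 itself held 26 and 32 long-range read pairs by hESC library against an expectation of 30.2 and 31.5. For neuroectoderm these were 15 and 20 against 17.6 and 19.9.

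The windows of RPA1–RTN4RL1, named from 1908000 on, hold part of RTN4RL1, the gene of a Nogo receptor relative. They hold none of RPA1, the gene of a single-strand DNA binding protein, which ends at 1900082. In neuroectoderm this block was low with MNT–METTL16 (0.507 and 0.466, limma adjusted p = 0.0020) and with the 3′ part of RAP1GAP2 (0.398 and 0.712, adjusted p = 0.0090). In hESC the first was 0.960 and 0.669 and the second 1.06 and 0.589, and neither passed. Without either neuroectoderm library both neuroectoderm calls ended (limma adjusted p = 0.11 to 0.39), and the second was -0.44 without replicate 1. CRK–MYO1C was low in hESC with the PAFAH1B1 start, at 0.778 and 0.232, a pair that held 14 and 3 read pairs. Without hESC replicate 2 its log2 ratio went from -1.03 to -0.33 (limma adjusted p = 0.84), and it did not pass without either neuroectoderm library (0.15 and 0.16). With the middle of RAP1GAP2 CRK–MYO1C was 0.755 and 0.437, from 7 read pairs in each, and without hESC replicate 2 the log2 ratio went from -0.70 to -0.36 (limma adjusted p = 0.83; without neuroectoderm replicate 1 0.097). With MNT–METTL16 it was 0.574 and 0.708, no single library could be left out without ending the call (0.11 to 0.59), and the Poisson interval of the summed reads (0.431 to 1.06) included 1. ABR–TRARG1 with RPA1–RTN4RL1 was above the mean in neuroectoderm (1.27 and 1.48, limma adjusted p = 0.0049) and stood at 1.31 and 1.18 in hESC (adjusted p = 0.054). Without neuroectoderm replicate 2 its neuroectoderm call ended (log2 0.32, limma adjusted p = 0.41).

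**Figure D4:**
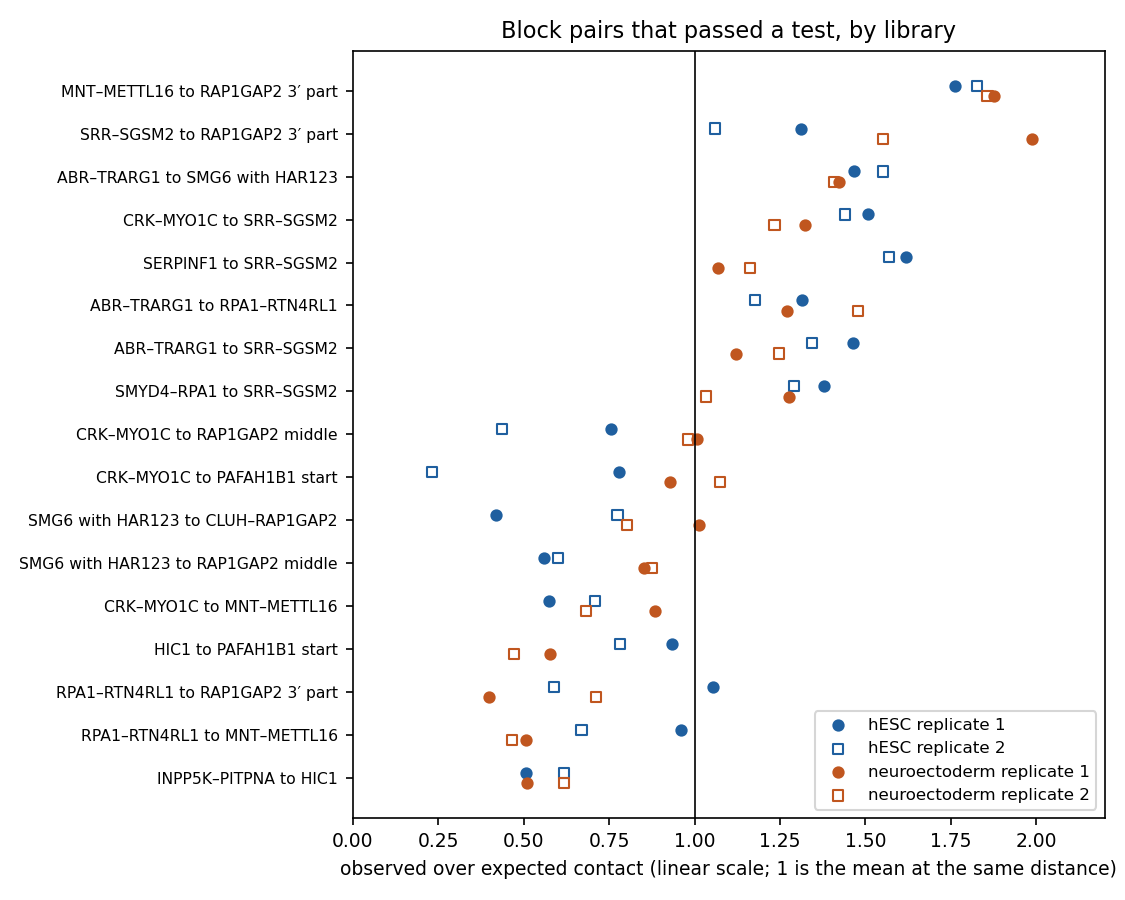
Observed over expected contact (linear axis, 1 is the mean at the same distance) for every block pair that passed at least 1 test, with a point for each library. The 4 libraries lie together for MNT–METTL16 to RAP1GAP2 3′ part (1.76 to 1.88), and the cell types lie apart for SRR–SGSM2 to RAP1GAP2 3′ part and for SERPINF1 to SRR–SGSM2.

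Between the cell types 2 of 68 block pairs passed (2.94%), 1 higher in neuroectoderm (1.47%) and 1 lower (1.47%), and 9 had an unadjusted p under 0.05. SRR–SGSM2 to the 3′ part of RAP1GAP2 was higher in neuroectoderm by 0.54 on the log2 scale (SE 0.11, limma adjusted p = 0.0029). SERPINF1 to SRR–SGSM2 was lower by 0.48 (log2 -0.48, SE 0.14, limma adjusted p = 0.0496). Both fitted errors lay below the counting error of either cell type alone. In hESC and neuroectoderm that error was 0.121 and 0.123 for the first block pair and 0.152 and 0.234 for the second. The Poisson intervals of the cell types overlapped for the second (1.30 to 1.98 and 0.783 to 1.52) and not for the first (0.945 to 1.32 and 1.48 to 2.08). Neither difference held under most alternatives. The first passed in 4 of 19 alternatives, with adjusted p-values up to 0.58, and not without neuroectoderm replicate 1 (log2 0.37, limma adjusted p = 0.43). The second passed in 0 of 18. In the fit over block pairs at all distances (2.16% called), no long-range difference passed, and on recovered read pairs with voom none did either.

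The block pairs with the next smallest p-values did not pass. CRK–MYO1C to the PAFAH1B1 start differed by 1.03 (SE 0.33, limma adjusted p = 0.093), with both values near 1 in neuroectoderm (0.9295 and 1.07). SRR–SGSM2 to the middle of RAP1GAP2 was 0.814 and 0.863 in hESC and 1.25 and 1.503 in neuroectoderm, without overlap (log2 0.65, SE 0.25, limma adjusted p = 0.21). CRK–MYO1C to the middle of RAP1GAP2 differed by 0.69 (SE 0.29, limma adjusted p = 0.29). Both neuroectoderm libraries lay above both hESC libraries in 15 of the 68 block pairs and below both in 19.

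Summed over all partners 500 kb or more away, a block's ratio says how much it takes part in long-range contact. SRR–SGSM2 was highest in neuroectoderm (1.35 ± 0.04, SD, n = 2) and second in hESC (1.25 ± 0.04), where SERPINF1 had 1.31 ± 0.06. The middle of RAP1GAP2, a block inside the gene with no gene start, was lowest in hESC, at 0.751 and 0.732 by library, and stood at 0.933 and 0.954 in neuroectoderm. That was the single block of 17 whose difference passed (5.88%; log2 0.31, SE 0.08, limma adjusted p = 0.011), and 4 had an unadjusted p under 0.05. It did not pass without neuroectoderm replicate 1 (0.32, limma adjusted p = 0.27), without neuroectoderm replicate 2 (0.30, adjusted p = 0.37), with a minimum distance of 750 kb (0.18, adjusted p = 0.49) or on unbalanced read pairs (0.20, adjusted p = 0.15). In neuroectoderm RPA1–RTN4RL1 was lowest (0.812 ± 0.01), with HIC1 next (0.826 ± 0.06). The spread of these neighbours overlaps.

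**Figure D5:**
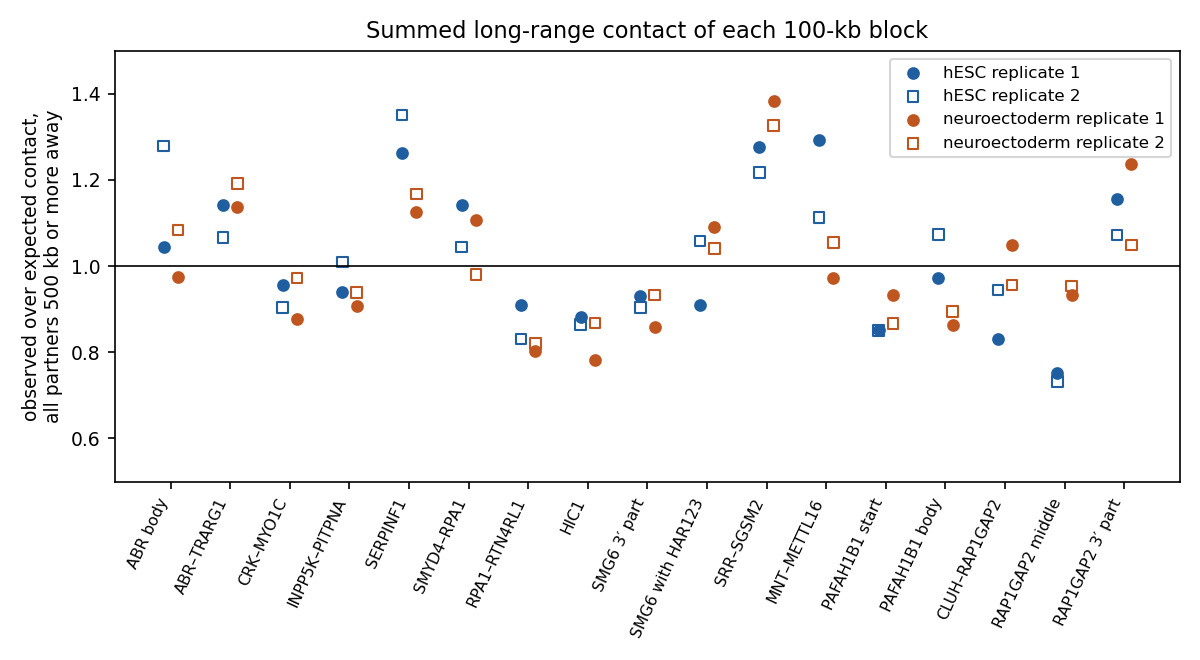
Observed over expected contact of each 100-kb block with all its partners 500 kb or more away, with a point for each library; blocks run along the chromosome and the axis starts at 0.5. The middle of RAP1GAP2 lies at 0.751 and 0.732 in hESC and at 0.933 and 0.954 in neuroectoderm.

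Blocks were also sorted by gene content, using the annotation alone. With a median of 2 protein-coding gene starts per block, 9 blocks counted as gene-rich and 8 as gene-poor. Contact between gene-rich blocks was 1.03 ± 0.02 times the mean in hESC and 1.02 ± 0.02 in neuroectoderm, and between a gene-rich and a gene-poor block 1.01 ± 0.007 and 1.04 ± 0.01. Contact between gene-poor blocks was lower, at 0.931 ± 0.04 and 0.871 ± 0.03. It was the lowest of the classes in all 4 libraries. This order turned in hESC, where the gene-poor class stood at 1.103, when all annotated genes were counted and not only the protein-coding ones. No test was run on these classes.

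Single window pairs rested on few reads. Of the 2 window pairs with the most reads over the 4 libraries, the first joined SMYD4 (1783501 to 1793500) with 2293501 to 2303500. The latter window holds the start of SRR and the 5′ part of SMG6, and this pair belongs to the SERPINF1 and HAR123 blocks. The second joined METTL16 and RAP1GAP2 (2453501 to 2463500 with 2963501 to 2973500). The first held 4 and 7 read pairs by hESC library, with 1 and 1 for neuroectoderm. The second held 2 and 2 by hESC library, with 4 and 4 for neuroectoderm. Another METTL16 to RAP1GAP2 pair (2423501 to 2433500 with 2993501 to 3003500) held 4, 1, 4 and 2. By the threshold of the study's methods for a significant interaction (p under 1e-10 and z over 10), applied to block pairs on the recovered read pairs, none passed in either cell type, with smallest p-values of 9.5e-07 in hESC and 2.5e-08 in neuroectoderm by the Poisson test.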

How the data were processed

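Hi-C libraries had been aligned by the authors to hg38 with bowtie2 and built into matrices with HOMER. What was deposited is a balanced contact signal over 2000 overlapping bins, named in steps of 1 kb, and 1477 of these had values in all libraries. They were balanced within each library and not scaled between libraries. A window runs from 4500 bp left to 5500 bp right of its name. Read pairs were recovered as whole multiples of the bins' factors (100% within 0.1 of a whole number). Intervals cover counting error only.

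The expected contact was the library's mean over all bin pairs at the same distance. For expected read pairs it was divided by the balancing factors of both windows. limma 3.58.1 in R 4.3.3 (cell-means model over all 4 libraries, variance trend) was fitted to log2((observed over expected + 0.1)/1.1), with Benjamini-Hochberg adjustment over block pairs with at least 25 window pairs, or blocks with at least 100. This scale understates changes of low pairs. Scripts were tested on simulated data. Genes are from GENCODE 44. The deviations of same-numbered libraries had a correlation of -0.04. As replicates differed by no more than counting error, this cannot tell whether same-numbered libraries were paired. Named block pairs were the 5 highest and 5 lowest per cell type, those past the threshold, the 5 with the smallest p for the difference, and those with HAR123 or HIC1. The rule, blocks and lists were chosen with earlier results of these data known.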

Additional observations from a re-analysis of the deposited data

Results flagged for a closer look

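The difference between neuroectoderm and hESC passed the test for 2 block pairs and for 1 block summed over its partners. SRR–SGSM2 to the 3′ part of RAP1GAP2 was higher in neuroectoderm, with a log2 difference of 0.54 in both-replicate means. SERPINF1 to SRR–SGSM2 was lower in neuroectoderm, with a log2 difference of -0.48. The middle of RAP1GAP2 was higher in neuroectoderm over all its partners, with a log2 difference of 0.31. The libraries of the 2 cell types did not overlap in any of these. Depth moved with the cell type, at 2469 and 2541 long-range read pairs in hESC against 1493 and 1566 in neuroectoderm, and its part in these differences was not tested.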

How the results depend on the processing

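Of the main counts (12 block pairs in hESC, 9 in neuroectoderm, 2 between them), many changed with the processing. In hESC, neuroectoderm and the difference the counts were 7, 8 and 0 with an expectation from non-overlapping windows, 9, 6 and 0 with a power law, 14, 9 and 1 with a pseudocount of 0.5, 5, 2 and 0 without the filter on window pairs, and 8, 7 and 0 with a minimum of 50 window pairs. They were 1, 3 and 0 with windows moved by 5 kb, 3, 4 and 0 with block borders moved by 50 kb, 3, 2 and 0 from 750 kb on, 3, 2 and 0 without windows next to unmeasured stretches, 2, 7 and 0 on recovered read pairs, and 2, 4 and 1 with 200-kb blocks. The study's threshold gave 0 and 0, and voom gave 0 for the difference. The replicate number as a block (replicate block) gave 6, 6 and 0, and 1 block among the block sums. With 1 library left out, the counts ranged from 4 to 8, from 4 to 10 and from 1 to 2, and from 0 to 2 for block sums. The block sums gave 0 with windows moved by 5 kb, 0 with borders moved and 0 from 750 kb on.

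Chosen after seeing the data were leaving out the top window pair (9, 5 and 0), an expectation with long-range coverage (2, 2 and 0), limma without trend (4, 5 and 0), limma weighted by expected read pairs (18, 6 and 0), and the fit over all distances (17, 16 and 0). Over the named block pairs that passed, no alternative that kept the blocks turned a direction, but several could not. Another filter on window pairs, a replicate block, limma without trend and the fit over all distances left the log2 ratio itself unchanged. So did leaving out a library of the other cell type, for calls in a single cell type. Leaving out windows next to unmeasured stretches changed nothing in blocks without such windows. Past the threshold stayed 215 values, and 206 did not. The cause was not tested. The share of read pairs 500 kb or more apart, 6.26% in hESC and 7.75% in neuroectoderm, was 4.37% and 4.33% with all read pairs as the denominator and 6.79% and 8.12% on the deposited values. Contact of gene-poor blocks was 1.103 and 0.939 with all genes counted, and 0.758 in neuroectoderm from 750 kb on. The number of libraries and the few read pairs limit all of these.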
